A study of Mus musculus with 6 samples.

Results

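The genes described here encode calcineurin, the NFAT transcription factors that it activates and the Rcan proteins that bind it. Expression of Ppp3ca, a catalytic subunit, was 3.41-fold higher in C2C12 myotubes than in myoblasts, and Nfatc4 was 18.4-fold higher, while Nfatc3, Rcan1 and Rcan3 were lower by smaller amounts when libraries were scaled by TMM (trimmed mean of M-values). The set was chosen by symbol and holds 10 of the 54525 gene rows in the counts: Ppp3ca, Ppp3cb, Ppp3r1, Nfatc1, Nfatc2, Nfatc3, Nfatc4, Rcan1, Rcan2 and Rcan3. All 10 were found.

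Calcineurin is a phosphatase that is switched on by calcium and calmodulin. It removes phosphates from NFAT factors, which then enter the nucleus, and kinases that phosphorylate NFAT send them out again. In skeletal muscle this pathway is known for its part in the differentiation of myoblasts and in the slow, oxidative fiber program. Rcan proteins bind calcineurin and can inhibit it, and a short form of Rcan1 is a known NFAT target.

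RNA-seq was performed on total RNA from C2C12, a mouse muscle cell line in long use, in which proliferating myoblasts exit the cell cycle and merge into myotubes once serum is lowered. The 3 D0 libraries came from myoblasts in growth medium with fetal bovine serum, and the 3 D5 libraries from cultures differentiated for 5 days in medium with horse serum. Both groups were labelled wild type (WT) and untreated, and both came from 1 cell line, so the p-values measure the spread between these libraries. The labels gave the same cell type, myoblasts, for both groups.

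Total gene counts per library were 36555048 to 40895840 at D0, and at D5 they were 25449759 to 25811300. Levels were expressed as CPM, counts per 1000000 counts of the library after scaling. At most 3 counts in a library, 0.0714 to 0.122 CPM, were read as not detected, a limit that covers counting error only. All 8 myotube markers were higher at D5, their summed level going from 7794-8280 CPM to 36627-38281 CPM, and all 7 myoblast and proliferation markers were lower, from 1968-1987 CPM to 184-192 CPM. Single genes carried these sums. Ttn had a mean of 6028 CPM at D0 and 23868 CPM at D5. Myod1, at 126 CPM, was the largest part of the myoblast sum at D5. It was at 60.9% of its D0 level, and Mki67 at 2.89%. Of 10 markers of leukocytes, macrophages, endothelium, fat, bone and epithelium, 6 had 3 counts or fewer in every library, Ibsp had none in any, and only Cd68 was tested and lower at D5. These 10 summed to 3.33-3.50 CPM in the D0 libraries and to 2.37-2.84 CPM in the D5 libraries. In bulk RNA, a change in the share of cells that express a gene and a change in RNA per cell cannot be told apart.

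Of the 10 genes, 9 had enough counts to be tested with edgeR's quasi-likelihood test, and 7 of those were called, with an adjusted p under 0.05 by the Benjamini-Hochberg method. The background was high, since 82.9% of the 16290 genes tested passed in the same comparison. Ppp3ca, Ppp3r1, Nfatc1 and Nfatc4 were higher at D5 (4 of 9, against 42.2% of all genes tested), and Nfatc3, Rcan1 and Rcan3 were lower (3 of 9, against 40.8%). For the same 7 genes the CPM ranges of the groups did not overlap, again 4 higher and 3 lower, where 83.3% of all genes tested had no overlap, 42.2% higher and 41.1% lower. The median absolute log2 fold change was 0.21 over the 9 genes and 0.67 over all genes tested. The counts of calls are thus near the background.

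Ppp3r1 and Nfatc1 did not keep their direction under every scaling. When the libraries were scaled to ERCC spike-ins, the median of all genes shifted by -0.58 on the log2 scale, and Nfatc4 was the only one of the 10 genes that passed the test. Relative to that shifted median the differences were close to those with TMM, at 1.78 against 1.77 for Ppp3ca, 4.18 against 4.20 for Nfatc4 and -0.40 against -0.43 for Nfatc3. A change of scaling moves all genes by nearly the same amount, so this closeness follows from the method and is no check of either scaling. Spike-ins made up 0.726% to 0.859% of each D0 library and 0.720% to 2.09% of each D5 library, and the standard error of a log2 fold change for these genes was 0.515 or more with this scaling. The directions given for these genes are therefore relative to the other genes in the library.

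**Figure D1:**
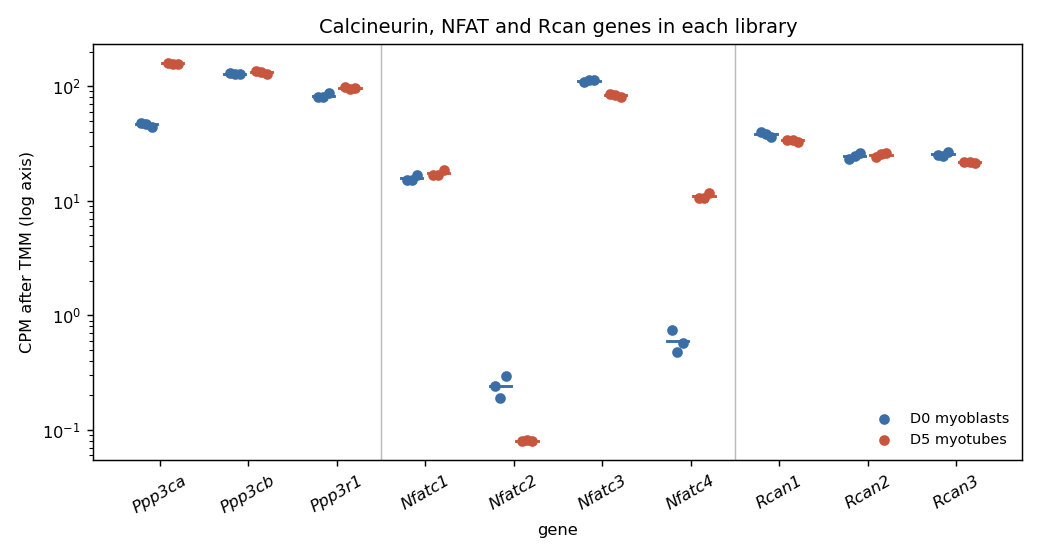
CPM after TMM scaling (log axis) of the 10 genes in the 3 D0 and the 3 D5 libraries, with a point for each library and a line at each group mean. Ppp3ca and Nfatc4 stood highest above their D0 levels, and the groups overlapped for Ppp3cb and Rcan2; with ERCC scaling the log2 fold changes of Ppp3r1 and Nfatc1 were -0.36 and -0.44.

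The catalytic subunit of calcineurin carries the phosphatase site and binds calmodulin. Ppp3ca, which encodes its alpha form (chr3:136670124-136937727, plus strand, GRCm38), was measured at 48.1, 47.2 and 43.8 CPM in the D0 libraries and at 159.9, 156.7 and 157.9 CPM in the D5 libraries. Every D5 library was above every D0 library by more than the spread in either group. The log2 fold change was 1.77 (SE 0.038, adjusted p = 3e-27 in edgeR's test), and 19.2% of all genes tested differed by more. Leaving out any single library moved it only between 1.72 and 1.78. With ERCC scaling the value was 1.21 with an adjusted p of 0.0589.

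Ppp3cb, the beta form of the same subunit (chr14:20499364-20546573, minus strand), was at 130.6, 127.7 and 127.8 CPM at D0. At D5 it was at 135.6, 133.6 and 128.1 CPM. The lowest D5 library fell within the D0 range, so the groups overlapped. The log2 fold change of 0.041 (95% interval -0.03 to 0.11, adjusted p = 0.258 in edgeR's test) did not pass the threshold, and 96.3% of all genes tested differed by more.

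Because the sequenced reads of a gene rise with its length, levels of different genes were compared per length, as TPM (transcripts per 1000000, from exonic length). Ppp3ca held 24.5%, 24.6% and 23.2% of the summed TPM of Ppp3ca and Ppp3cb in the D0 libraries. In the D5 libraries it held 51.0%, 50.9% and 52.1%. The share thus went from 24.1% ± 0.776 (SD, n = 3) to 51.3% ± 0.687, with no overlap between the groups. A two-sided exact permutation test gave p = 0.1, the smallest that 3 libraries against 3 can give. Per length, Ppp3ca went from 0.318 ± 0.0134 of the level of Ppp3cb to 1.05 ± 0.0292. The share does not depend on how the libraries were scaled.

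Ppp3r1 encodes calcineurin B, the calcium-binding regulatory subunit that the catalytic subunits need (chr11:17159263-17200375, plus strand). It was at 81.1, 80.8 and 87.2 CPM at D0 and at 98.8, 94.1 and 95.8 CPM at D5. All D5 libraries were above all D0 libraries. The log2 fold change was 0.21 (SE 0.038, adjusted p = 8.3e-06 in edgeR's test), and with ERCC scaling it was -0.36 with an adjusted p of 0.611. Of its exonic bases, 14.3% were shared on the same strand with Wdr92. How reads from these bases were counted is not known, so the effect on its count is not known either.

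The summed TPM of Ppp3ca and Ppp3cb was 66.6 ± 0.269 at D0 and 95.8 ± 3.35 at D5. Ppp3r1 was at 88.9 ± 5.02 and 92.5 ± 4.19 TPM, and its range overlapped between the groups on this scale. Relative to the sum of Ppp3ca and Ppp3cb, without Ppp3cc, the TPM of Ppp3r1 was 1.28, 1.30 and 1.43 at D0. At D5 it was 0.974, 0.944 and 0.977. The ratio was lower in every D5 library, and by coding length its means were 1.54 and 1.05. It was examined with no test.

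NFAT factors are the substrates through which calcineurin reaches transcription. Nfatc4, known from the growth response of heart muscle (chr14:55823144-55833943, plus strand), was counted 28, 20 and 23 times at D0 and 268, 260 and 290 times at D5. In CPM these were 0.747, 0.476 and 0.571 at D0 and 10.7, 10.6 and 11.7 at D5. Nfatc4 was low but above the limit of detection in all D0 libraries, and the D5 libraries stood far above them. The log2 fold change was 4.20 (SE 0.14, 95% interval 3.91 to 4.49, adjusted p = 4.9e-22 in edgeR's test), and 6.91% of all genes tested differed by more. It ranged from 4.04 to 4.37 as each library was left out and was 3.61 with ERCC scaling (adjusted p = 1.7e-08).

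Nfatc3 (chr8:106058840-106130537, plus strand) was the most abundant NFAT transcript per length in both groups. It was at 108.5, 112.4 and 113.3 CPM at D0. At D5 it was at 85.3, 83.8 and 80.1 CPM. Every D5 library was below every D0 library. The D5 level was 74.6% of the D0 level (log2 fold change -0.42, SE 0.036, adjusted p = 6.5e-12 in edgeR's test). The direction was the same under each alternative, but the call was lost with ERCC scaling (-0.98, adjusted p = 0.132).

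Windows of 300 bases around the annotated starts, from 250 before to 50 after, are shown for these 2 genes because they were the tested NFAT genes with the largest difference in each direction. They are RefSeq sequences on GRCm38.p6, written 5′ to 3′ along the gene, and capitals mark the NFAT core GGAAA or its complement TTTCC. The Nfatc4 window spans chr14:55824545-55824844 and the first Nfatc3 window chr8:106058568-106058867, both on the plus strand.
Nfatc4: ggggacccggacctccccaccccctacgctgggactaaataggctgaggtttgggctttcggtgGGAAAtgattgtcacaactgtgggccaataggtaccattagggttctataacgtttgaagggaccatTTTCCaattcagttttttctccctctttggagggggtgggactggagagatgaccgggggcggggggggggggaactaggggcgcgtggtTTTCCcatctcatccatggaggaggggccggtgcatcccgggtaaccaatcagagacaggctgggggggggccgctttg
Nfatc3: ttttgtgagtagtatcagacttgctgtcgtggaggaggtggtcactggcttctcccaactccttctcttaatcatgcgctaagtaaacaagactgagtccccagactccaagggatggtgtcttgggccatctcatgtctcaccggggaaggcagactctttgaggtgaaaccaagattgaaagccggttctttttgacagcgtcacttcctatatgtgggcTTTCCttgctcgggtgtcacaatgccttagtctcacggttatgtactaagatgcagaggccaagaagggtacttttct
The Nfatc4 window held 3 cores, which began 186, 119 and 29 bases before the start, and 1 E-box (CANNTG, the core bound by MyoD and related factors). This start lies inside the annotated gene, which begins at chr14:55823144, and no window around that base was read. The Nfatc3 window held 1 core, 28 bases before its start, and no E-box. The other Nfatc3 window, around another start at chr8:106059340-106059639, held no core and 1 E-box, so the motifs of Nfatc3 depend on the start that is read. Of 32851 such windows in RefSeq, 61.3% held the core on either strand, 9.42% held it 3 times or more and 72.3% held an E-box. Of 13 windows that matched 8 of the 10 genes, 8 held a core and 8 an E-box, and none held a MEF2 motif, which 3.19% of all windows held. Nfatc1 was left out of this match by choice, and Ppp3ca had no usable window. The counts for these 13 windows therefore say nothing of those genes. These letter matches are a description and do not show binding.

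Nfatc1, an NFAT factor known for the slow fiber program, was at 15.2, 15.2 and 16.7 CPM at D0. At D5 it was at 16.9, 16.9 and 18.7 CPM. The D5 libraries were above the D0 libraries by a narrow margin. The log2 fold change of 0.16 (SE 0.064, 95% interval 0.03 to 0.29) came with adjusted p = 0.0247 in edgeR's test. The call was lost without D0 replicate 1 (0.12, adjusted p = 0.116), without D0 replicate 2 (0.12, adjusted p = 0.119) and without D5 replicate 3 (0.11, adjusted p = 0.159). It was also lost with DESeq2 (0.16, adjusted p = 0.063), and with total counts or ERCC scaling the value was 0.073 and -0.44. The call for Nfatc1 thus rested on single libraries and on the scaling.

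Nfatc2, known for its part in myotube growth (chr2:168476410-168601657, minus strand), had 9, 8 and 12 counts at D0 and 2 in each D5 library. It was above the limit of detection in the D0 libraries and below it in the D5 libraries, and it was not tested because it did not pass the filter. The summed counts were 29 and 6, and the D0 level was 3.01 times the D5 level after scaling for depth, with an exact 95% interval from 1.23 to 8.87 for counting error only.

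Among the 4 NFAT genes, Nfatc3 held 80.8%, 81.8% and 80.4% of the summed TPM at D0. At D5 it held 63.9%, 63.6% and 60.2%. The share of Nfatc4 was 1.12%, 0.699% and 0.818% at D0 and 16.1%, 16.2% and 17.7% at D5. Every D5 library was lower in the share of Nfatc3 and higher in that of Nfatc4, whose means were 0.881% ± 0.219 and 16.7% ± 0.878. Nfatc1 held 17.9% at D0 and 20.7% at D5, and the share of Nfatc2 went from 0.196% to 0.0671%. None of these 4 shares overlapped between the groups, and each had p = 0.1 in the exact permutation test, the smallest possible. The TPM of Nfatc1 itself did overlap, at 6.94 to 7.82 at D0 and 6.89 to 7.73 at D5. The summed TPM of the 4 genes was 40.5 ± 1.62 at D0 and 35.1 ± 0.917 at D5, and the ratio of Nfatc3 to Nfatc4 went from 95.7 ± 22.7 to 3.77 ± 0.314.

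**Figure D2:**
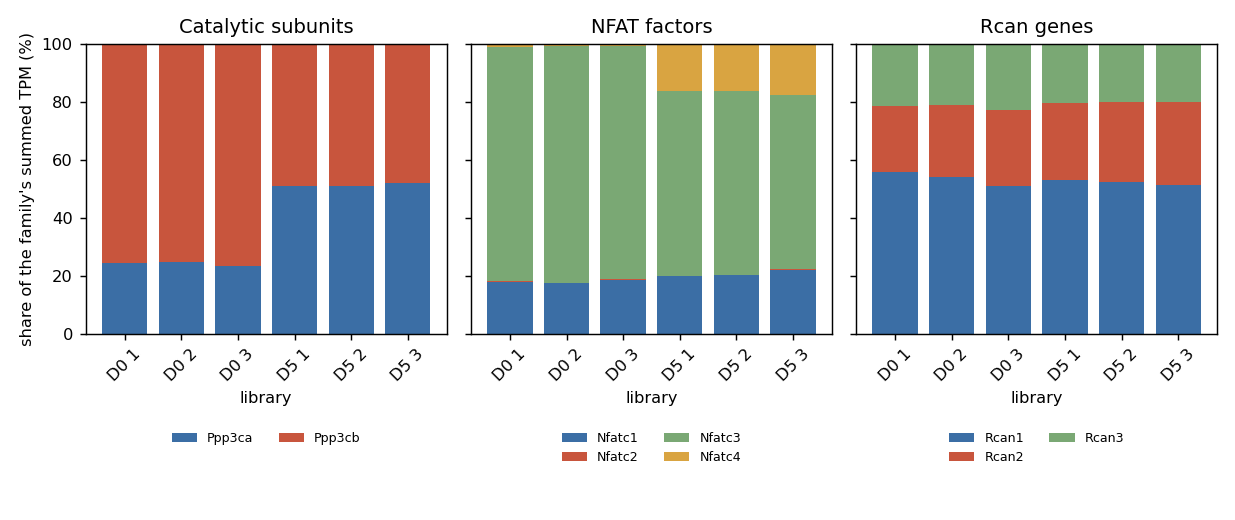
Stacked bars give the share (%) of the summed TPM of each family held by each gene in the 6 libraries. The families are Ppp3ca with Ppp3cb, the NFAT factors and the Rcan genes. Ppp3ca went from 23.2-24.6% at D0 to 50.9-52.1% at D5 and Nfatc4 from 0.699-1.12% to 16.1-17.7%, while Rcan1 held 51.1-55.8% over all 6 libraries.

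Rcan1 encodes an inhibitor of calcineurin (chr16:92391953-92470867, minus strand). Its level was 39.6, 38.2 and 36.0 CPM at D0 and 34.2, 34.0 and 32.8 CPM at D5. All D5 libraries were below all D0 libraries, the nearest being 1 D0 library at 36.0 and 1 D5 library at 34.2. The D5 level was 88.9% of the D0 level (log2 fold change -0.17, SE 0.048, adjusted p = 0.00189 in edgeR's test). The range was -0.22 to -0.15 as each library was left out, and with ERCC scaling it was -0.72 with an adjusted p of 0.283.

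Rcan1 is read from alternative starts, and the counts per gene cannot tell its isoforms apart. The windows around both RefSeq starts are shown because they differ in the NFAT core. The internal start lies in chr16:92400029-92400328 and the upstream start in chr16:92466120-92466419, both on the minus strand, with capitals as above.
Rcan1 internal start: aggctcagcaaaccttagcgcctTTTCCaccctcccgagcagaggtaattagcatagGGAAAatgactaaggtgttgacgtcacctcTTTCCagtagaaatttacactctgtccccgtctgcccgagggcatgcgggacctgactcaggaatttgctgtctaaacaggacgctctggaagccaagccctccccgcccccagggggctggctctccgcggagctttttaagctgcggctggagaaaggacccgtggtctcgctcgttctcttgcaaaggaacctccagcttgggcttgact
Rcan1 upstream start: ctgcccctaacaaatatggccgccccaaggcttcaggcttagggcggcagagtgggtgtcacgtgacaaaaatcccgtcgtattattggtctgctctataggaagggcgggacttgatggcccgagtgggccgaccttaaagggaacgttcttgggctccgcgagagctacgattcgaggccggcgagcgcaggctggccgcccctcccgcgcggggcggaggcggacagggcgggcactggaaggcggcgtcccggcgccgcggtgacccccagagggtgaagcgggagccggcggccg
The internal window held 3 cores, which began 227, 193 and 163 bases before the start, and no E-box. The upstream window held no core and 1 E-box. Whether the lower count of Rcan1 came from transcripts of either start was not tested.

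Rcan2, another calcineurin-binding member of the family (chr17:43801351-44039516, plus strand), was at 23.0, 24.5 and 25.9 CPM at D0. At D5 it was at 24.2, 25.7 and 26.2 CPM, so the groups overlapped. The log2 fold change of 0.048 (95% interval -0.06 to 0.16, adjusted p = 0.417 in edgeR's test) did not pass the threshold. Without D0 replicate 1 it was -0.0089, and it was also below 0 with total counts and with ERCC scaling.

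Rcan3, the third family member (chr4:135412308-135433853, minus strand), was at 25.1, 24.8 and 26.7 CPM at D0. At D5 it was at 21.9, 21.7 and 21.3 CPM, below every D0 library. The D5 level was 84.7% of the D0 level (log2 fold change -0.24, SE 0.053, adjusted p = 0.000154 in edgeR's test). Leaving out a library moved it between -0.27 and -0.22, and with ERCC scaling it was -0.81 with an adjusted p of 0.228.

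The 3 Rcan genes kept similar shares of their summed TPM. Rcan1 held 53.7% at D0 and 52.1% at D5, and its ranges overlapped (exact permutation p = 0.4). Rcan2 went from 24.5% to 27.6% and Rcan3 from 21.8% to 20.2%, each with no overlap between the groups and p = 0.1 in the exact permutation test. The summed Rcan TPM was 79.1 ± 0.875 at D0 and 65.0 ± 1.20 at D5. Relative to the summed TPM of Ppp3ca and Ppp3cb it was 1.17, 1.19 and 1.21 at D0 and 0.666, 0.685 and 0.685 at D5. This ratio was lower in every D5 library and does not depend on the scaling of libraries. By coding length the means were 1.04 and 0.562, and the ratio was given no test. Ppp3cc, which this ratio leaves out, was higher at D5 with a log2 fold change of 0.54, which with ERCC scaling was -0.024 and not called.

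**Figure D3:**
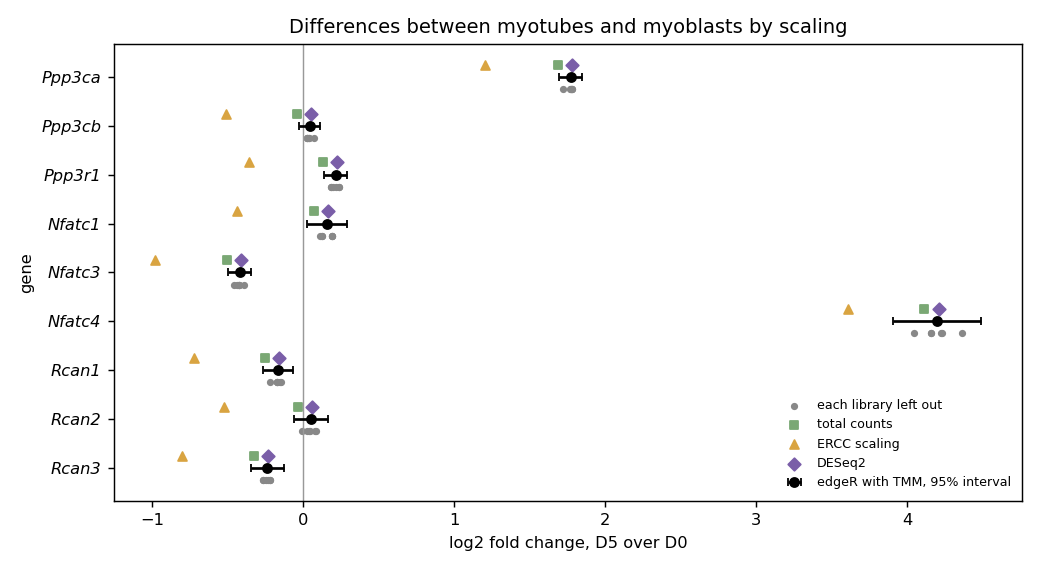
Log2 fold change, D5 over D0, of the 9 tested genes with edgeR and TMM (95% interval), with each library left out, and with total counts, ERCC scaling or DESeq2. Ppp3ca and Nfatc4 stayed above 0 and Nfatc3, Rcan1 and Rcan3 below 0 under all settings drawn, whereas Ppp3r1 and Nfatc1 were below 0 with ERCC scaling, and Ppp3cb and Rcan2 with total counts and ERCC scaling.

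Per length, the order of the 10 genes at D0 was Ppp3r1 (88.9 TPM), Ppp3cb (50.5), Rcan1 (42.5), Nfatc3 (32.8), Rcan2 (19.4), Rcan3 (17.3), Ppp3ca (16.1), Nfatc1 (7.26), Nfatc4 (0.355) and Nfatc2 (0.0795). Only Rcan2 and Rcan3 were neighbors with overlapping ranges. At D5 the order was Ppp3r1 (92.5 TPM), Ppp3ca (49.1), Ppp3cb (46.6), Rcan1 (33.9), Nfatc3 (22.0), Rcan2 (18.0), Rcan3 (13.1), Nfatc1 (7.26), Nfatc4 (5.85) and Nfatc2 (0.0236). Here only Ppp3ca and Ppp3cb overlapped. By exonic length Ppp3ca went from the seventh place to the second, and the other genes kept their order among themselves. By coding length Rcan3 held a larger mean share of the Rcan sum than Rcan2 at D0 (31.9% and 27.3%). At D5 Rcan3 held a smaller one (29.5% and 30.8%), so the order of these genes depends on the length used.

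The genes whose pattern was most like that of Nfatc4 were sought among 9395 tested genes with a mean of at least 10 CPM. The measure was the Euclidean distance between profiles of log2 CPM (prior count 2) centered on each gene's mean over the 6 libraries. The nearest were Stac3 (distance 0.365), Porcn (0.379), Cyp1b1 (0.390), Olfml3 (0.406) and Myl6b (0.409). Their log2 fold changes were 3.95, 4.20, 3.93, 4.03 and 3.99. With only 2 groups the distance follows mainly the size of the difference, so shared regulation was not tested. Stac3, a component of the excitation-contraction coupling machinery, had 252 to 269 counts at D0 and 2424 to 2587 at D5.

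Genes that feed calcium to calcineurin or act with it were described by lists. Of 14 calcium inputs, 13 were tested, and the test called 5 higher and 7 lower in myotubes, with a median log2 fold change of -0.20, against 0.0022 for all genes tested. These counts and those of the other lists stand beside 42.2% higher and 40.8% lower over all genes tested. With ERCC scaling 4 inputs were called higher and 3 lower. Cacna1s and Ryr1, which encode the voltage sensor of the T-tubule and the calcium release channel of the sarcoplasmic reticulum, were higher by 9.97 and 7.39. Orai1, the channel of store-operated calcium entry, and Stim1, its sensor, were higher by 2.07 and 1.93. Itpr3, an inositol trisphosphate receptor, and Calm2, a calmodulin gene, were lower at -0.95 and -1.05.

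Of 14 calcineurin partners, 10 were tested, 4 were higher and 5 lower, with a median of -0.16, near the shares of all genes. With ERCC scaling 2 were called higher and 3 lower. Myoz2 and Myoz1, Z-disc proteins that bind calcineurin, were higher by 9.56 and 2.15, and Fkbp1a, the protein through which the drug FK506 inhibits calcineurin, was lower at -0.996. Cabin1, a calcineurin inhibitor, was lower at -0.90. Chp2, Myoz3 and Homer2 had 3 counts or fewer in every library.

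Of 11 kinases that phosphorylate NFAT, 10 were tested, 6 were higher and 3 lower, with a median of 0.18. The largest differences were in Prkaca (0.90), the catalytic subunit of protein kinase A, Dyrk2 (0.87), and Csnk1a1 (0.59), casein kinase 1 alpha. With ERCC scaling edgeR called 0 of the 10 kinases, also at an unadjusted p under 0.05. With TMM edgeR called 9, as did DESeq2 with its own size factors, so the calls were lost with the scaling.

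All 11 other calcineurin substrates and related Rel-domain factors were tested, 8 were higher and 3 lower, with a median of 0.51. Mef2c (7.96) and Mef2d (1.22), muscle transcription factors, and Tfeb (1.83), a regulator of lysosomal genes, led the list. With ERCC scaling 2 of the 11 were called.

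Of 10 slow and oxidative muscle genes, 9 were higher and Ppargc1a, a coactivator of mitochondrial genes, was lower at -0.39, with a median of 9.32. With ERCC scaling 9 were called higher and 0 lower by edgeR, also 0 lower at an unadjusted p under 0.05, and Ppargc1a was at -1.03 (adjusted p = 0.118), whereas it was called lower by DESeq2 with its own size factors (adjusted p = 0.00291). The median was 9.13 with Myl2 at the lower end of its interval. Myh7, the slow myosin heavy chain, and Tnni1, slow troponin I, were higher by 10.92 and 10.39. Myl2, the slow regulatory light chain, had 1 count over the D0 libraries, in replicate 3, and 1716 over the D5 libraries, a ratio of 2754 with an exact 95% interval from 494 to 108825 for counting error only. Its fitted log2 fold change went from 10.88 to 12.46 without D0 replicate 3, so its size rests on that count. All 8 myotube markers rose as well, and the part of the general rise of muscle genes in these values was not tested.

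Of 12 genes reported as NFAT-responsive in muscle or immune cells, 5 were tested, 2 were higher and 3 lower, with a median of -0.87. Egr3 and Egr2, early growth response factors, were higher by 6.02 and 2.57, and Myf5, a myogenic factor of myoblasts, was lower at -2.32. Mstn, Il4, Il6, Csf2, Fasl and Il13 had 3 counts or fewer in every library.

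**Figure D4:**
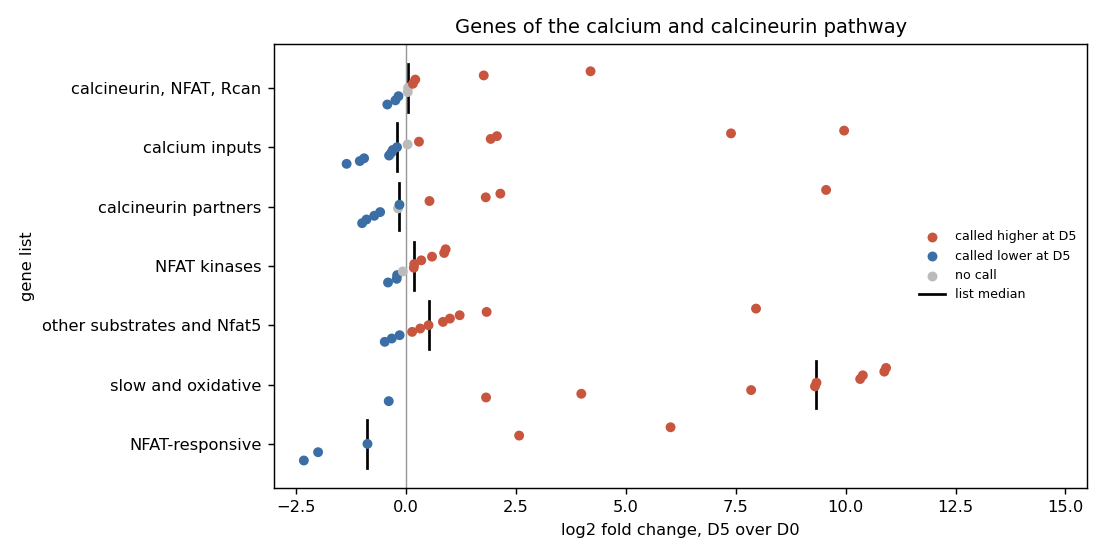
Log2 fold change, D5 over D0 with TMM scaling, of each tested gene in 7 lists, colored by the call of edgeR's test, with a line at the median of each list. The slow and oxidative genes had a median of 9.32, and the medians of the other lists lay between -0.87 and 0.51; with ERCC scaling the median of all genes was 0.58 lower.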

How the data were processed

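Total RNA of C2C12 was sequenced in 3 D0 and 3 D5 libraries. The sample titles only number the samples, so they do not say whether each library came from a separate culture. The authors aligned the reads to GRCm38 (mm10), and the deposited values are read counts per gene from featureCounts with no normalization. The labels name Tophat2 as the aligner and the paper HISAT2, and annotation release, strand setting and the handling of multi-mapping reads are not given in the sources used here. The submitters' processing notes also list DESeq2 1.6.3, whose results were not used here. The 92 ERCC rows (0.720% to 2.09% of counts) and a nameless row of column totals entered neither library sizes nor tests. Replicate pairs differed by more than sampling noise (chi-square per degree of freedom 2.16 to 3.45).

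Counts were filtered with filterByExpr on the 2 groups, scaled by TMM and tested with edgeR 4.0.16 (glmQLFit, glmQLFTest) in R 4.3.3, with Benjamini-Hochberg adjustment over the 16290 genes tested and a threshold of 0.05. Each SE was obtained from the size of the log2 fold change and the square root of F. Groups came from the labels. Lengths and positions came from GENCODE vM21 (GRCm38), with identifiers matched for 99.9% of rows, and TPM was computed from counts and exonic length. Shares were compared by an exact permutation test in scipy 1.17.1. On simulated counts, 195 of the 15947 genes tested were changed 2-fold. Of these 91.3% were recovered, and 3.78% of calls fell on unchanged genes. In the data 82.9% of genes were called, so the simulation gives no error rate for these calls.

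The 10 genes and all lists were chosen with earlier results of these data known. From each pathway list the text names the 3 genes with the largest change among those called with at least 100 mean counts in one group and no overlap, and all genes with 3 counts or fewer in every library. Stim1, Itpr3, Calm2, Ppp3cc, Cabin1, Ppargc1a and Cd68 were named after their values were seen. The alternatives were DESeq2 1.42.0, upper-quartile factors, total counts, ERCC scaling, no filter, at least 10 counts in every library, the replicate number as a block, each library left out, and, for shares, coding length or raw counts.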

Additional observations from a re-analysis of the deposited data

How the results depend on the processing

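The scaling mattered most. With ERCC scaling, edgeR called 5560 genes (1813 higher and 3747 lower at D5), 1 of the 10 genes (1 higher, Nfatc4, and 0 lower), 7 calcium inputs, 5 calcineurin partners, 0 NFAT kinases and 2 other substrates. At an unadjusted p under 0.05 it gave 2 of the 10 genes, 0 of them lower, and 0 kinases. With TMM edgeR called 3 lower and 9 kinases, and so did DESeq2 with its own size factors. Directions were followed only for the 10 genes and the genes named from the pathway lists, not for the other list genes. Among those followed, the log2 fold changes that turned with ERCC scaling were Ppp3cb (-0.51), Ppp3r1 (-0.36), Nfatc1 (-0.44), Rcan2 (-0.53) and, outside the 10, Ppp3cc (-0.024). Ppp3cb and Rcan2, which had no call, were also below 0 with total counts (-0.043 and -0.036) and with no filter (-0.012 and -0.0049), and Rcan2 ranged from -0.0089 without D0 replicate 1 to 0.085 without D5 replicate 1. Nfatc1 lost its call with no filter (0.10, adjusted p = 0.186). The cause was not tested, except that ERCC scaling shifted the median of all genes by -0.58. As each library was left out, 13236 to 13599 genes and 6 to 7 of the 10 were called. DESeq2 called 12765 genes and 6 of the 10. The labels do not say whether the same replicate numbers pair the samples. Deviations of same-numbered libraries correlated at 0.033, 0.064 and 0.028 across genes, each library correlating best with its own number. This is a hint from the data and not the design. With the replicate block 13558 genes and 7 of the 10 were called. Shares within families kept their direction by coding length, by raw counts and without each library. Their sizes differed by length, with Rcan1 at 40.9% (D0) and 39.7% (D5) by coding length. Nfatc2 at D5 was below the limit of detection, so depth limits its value.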
